A study of Mus musculus with 6 samples.

Results

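The mouse major histocompatibility complex (MHC), called H2, was examined in adult tibialis anterior muscle with and without Dock3. The H2 genes were taken as all rows of the deposited expression table whose GENCODE M21 symbol starts with H2- and whose value was above 0 in at least 1 of the 6 samples. These were 35 genes, of 45 rows with such a symbol and of 54393 gene identifiers in the table. By symbol they are 2 classical class I genes, 23 nonclassical class I genes, 4 class II chain genes, 5 genes of the class II peptide-loading proteins, and H2-Ke6, which is named for the locus but encodes no MHC chain. All lie on chromosome 17, between 33974659 and 37483552 of GRCm38.

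RNA was sequenced from 3 wild-type (WT) muscles, whose titles start with C57, and from 3 muscles of Dock3 knockout (Dock3 KO) mice. The mice are labelled adult, and the labels give no sex, litter, breeding history or allele for either genotype. Dock3 encodes an activator of the small GTPase Rac, and the comparison asks what its absence does to muscle transcripts. Each replicate is 1 muscle, and nothing in the labels says whether they were prepared together.

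MHC class I molecules pair a heavy chain with the light chain beta-2 microglobulin and show peptides from inside the cell to CD8 T cells. They are made by nearly all nucleated cells, although healthy mature muscle fibres are known to carry little of them on their surface. MHC class II molecules pair an alpha and a beta chain, show peptides from engulfed material to CD4 T cells, and are made mainly by macrophages, dendritic cells and B cells. Nonclassical class I molecules have narrower roles, such as ligands for natural killer (NK) cell receptors or carriers of particular peptides.

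Values are the authors' normalized counts, given in the order of replicates 1, 3 and 4 for WT and 1, 2 and 3 for Dock3 KO, and log2 differences are Dock3 KO minus WT of log2(normalized count + 1). These values summed to 23520223 to 33393950 per sample. Whole reads could not be recovered from them, so the number of reads behind each value is unknown. Dock3 checked the genotype labels, at 169, 161 and 118 normalized counts in replicates 1, 3 and 4 of the WT group against 22.4, 1.78 and 1.54 in replicates 1, 2 and 3 of the knockout group. Dock3 KO replicates 1 and 2 stood apart from the other libraries, since Gm42418 and Lars2 made up 17.89% and 20.26% of their summed values against 3.0% to 3.64% in the other samples. The 10 skeletal muscle fibre markers were above 0 in every sample and summed to 1419000 to 1636000 normalized counts, where the 35 H2 genes together summed to 5151 to 6572.

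The promoters of class I and class II genes carry short elements through which interferons and the class II transactivator act. The promoters of H2-K1, H2-D1, B2m, H2-Aa and H2-Eb1 are shown here, and their part in the levels was not tested. Each line is the 200 bases before the RefSeq transcript start on GRCm38.p6, read 5′ to 3′ on the gene's own strand. Capitals mark matches, on either strand, to GGGATTCCC (an NF-kB site of the class I enhancer A), AANNGAAA (part of an interferon response element), TGACG (the core of the X2 box) and GATTGG (the Y box). H2-K1 lies at chr17:34000334-34000533 on the minus strand, H2-D1 at chr17:35262894-35263093 on the plus strand and B2m, the light chain, at chr2:122147487-122147686 on the plus strand. H2-Aa lies at chr17:34287824-34288023 on the minus strand and H2-Eb1 at chr17:34305667-34305866 on the plus strand. For H2-K1 the table holds 2 starts 14 bases apart, and the downstream one is shown.
H2-K1: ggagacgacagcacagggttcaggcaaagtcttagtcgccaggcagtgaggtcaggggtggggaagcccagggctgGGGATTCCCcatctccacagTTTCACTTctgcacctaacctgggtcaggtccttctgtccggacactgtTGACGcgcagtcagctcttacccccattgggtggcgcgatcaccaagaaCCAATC
H2-D1: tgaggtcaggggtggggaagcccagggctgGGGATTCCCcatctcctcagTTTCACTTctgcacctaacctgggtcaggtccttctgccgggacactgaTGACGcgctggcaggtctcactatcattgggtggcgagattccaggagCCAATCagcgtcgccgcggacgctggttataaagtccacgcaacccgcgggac
B2m: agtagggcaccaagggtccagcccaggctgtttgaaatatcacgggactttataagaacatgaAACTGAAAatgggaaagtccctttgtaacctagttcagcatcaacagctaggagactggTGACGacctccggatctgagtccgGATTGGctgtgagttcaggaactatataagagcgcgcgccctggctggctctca
H2-Aa: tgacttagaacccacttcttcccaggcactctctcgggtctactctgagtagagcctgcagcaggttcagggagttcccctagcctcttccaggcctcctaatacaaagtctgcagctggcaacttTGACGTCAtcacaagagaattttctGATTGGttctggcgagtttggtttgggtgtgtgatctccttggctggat
H2-Eb1: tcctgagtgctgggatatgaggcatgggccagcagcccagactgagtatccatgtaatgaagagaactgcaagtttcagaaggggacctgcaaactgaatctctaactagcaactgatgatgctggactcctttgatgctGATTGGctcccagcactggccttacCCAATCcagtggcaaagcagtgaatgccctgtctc

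H2-K1, at the start shown, and H2-D1 carried the NF-kB match, the interferon element match, TGACG and GATTGG in the same order. The window of the upstream H2-K1 start held the first 3 of these 4 and no GATTGG match. The B2m window held the last 3 of the 4, with a different layout. The interferon and GATTGG matches lay on the opposite strand in H2-K1 and H2-D1 and on the gene's own strand in B2m. TGACG and GATTGG began 55 and 6 bases before the start shown for H2-K1, 101 and 53 in H2-D1 and 78 and 54 in B2m. A GATTGG match by letters alone need not be the Y box. H2-Aa had TGACG in an overlapping match on both strands, followed by GATTGG, and H2-Eb1 had GATTGG on each strand. Windows were found for 27 of the 35 H2 genes, with 30 starts in all. GGGATTCCC was present in 5 of the 30 H2 windows, from 4 genes (H2-K1, H2-D1, H2-Q6 and H2-Q7), whereas 0.21% of all 32851 windows of this length held it. GATTGG was present in 23 of the 30 H2 windows (22 genes), against 12.92% of all windows. AANNGAAA was present in 16 of the 30 (15 genes), against 17.02% of all windows, and TGACG in 9 (8 genes), against 15.66%. No window was found for H2-K2, H2-Ab1, H2-Q1, H2-Q5, H2-T24, H2-Bl, H2-T10 or H2-M6-ps.

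Of the 35 H2 genes, 21 had a mean of at least 10 normalized counts and entered the test, which compared the genotypes over 16031 genes. None passed the threshold, an adjusted p of 0.05 from limma after Benjamini-Hochberg adjustment, where 165 of all genes tested, or 1.03%, did. The smallest adjusted p of an H2 gene was 0.371, for H2-K1. At an unadjusted p under 0.05 there was 1 H2 gene of 21 (4.76%), H2-K1, against 10.5% of all genes tested. WT and knockout samples did not overlap for H2-K1 and H2-D1, each lower in all 3 Dock3 KO samples. That is 9.52% of the 21 genes, against 8.65% of all genes tested that were lower in Dock3 KO without overlap. A log2 difference below 0 was found for 16 of the 21 genes, against 51.0% of all genes tested, and the median was -0.11 against -0.01 for all genes. Without Dock3 KO replicate 2 the median of the H2 genes was 0.04. The 165 calls over all genes became 98 when WT replicate 4 was left out and 100 when Dock3 KO replicate 2 was, and no H2 gene was called in either.

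**Figure D1:**
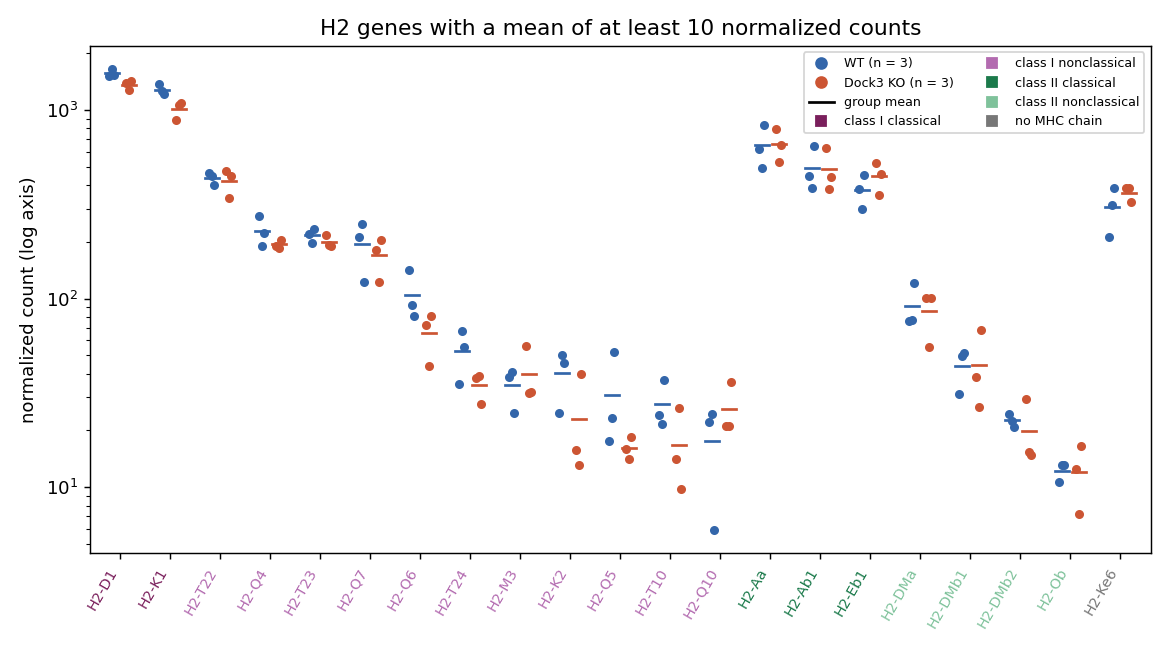
Normalized counts (log axis) of the 21 H2 genes tested, one point per sample, for 3 WT and 3 Dock3 KO muscles, with a bar at each group mean and gene names coloured by class. H2-D1 and H2-K1 are the genes whose Dock3 KO points all lie below the WT points.

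H2-K1 (chromosome 17, 33996017 to 34000347, minus strand) encodes the heavy chain of the classical class I molecule K. It stood at 1372, 1261 and 1220 normalized counts in replicates 1, 3 and 4 of the WT group and at 887, 1061 and 1087 in replicates 1, 2 and 3 of the knockout group. The knockout muscles were all below the WT muscles, and Dock3 KO replicate 1 was the lowest. The log2 difference was -0.35, its standard error 0.133, with a 95% interval from -0.64 to -0.05. This is 0.786 times the WT level, with an interval from 0.64 to 0.965, and it did not pass the threshold (limma adjusted p 0.371).

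H2-D1 (chromosome 17, 35262730 to 35267499, plus strand) encodes the heavy chain of the classical molecule D. It stood at 1522, 1650 and 1535 normalized counts in the WT muscles and at 1384, 1282 and 1418 in the knockouts. The groups did not overlap here either, with Dock3 KO replicate 2 the lowest. Its log2 difference of -0.20 had a 95% interval from -0.47 to 0.06 (limma adjusted p 0.617). Exact two-sided permutation tests of H2-K1 and of H2-D1 each gave p = 0.1, the smallest that 3 against 3 samples allow. Any gene whose groups do not overlap gives this value, so it adds nothing to the lack of overlap. With Dock3 KO replicate 3 as the only knockout library, the log2 differences were -0.24 for H2-K1 and -0.14 for H2-D1, and with all samples rescaled to the same total they were -0.62 and -0.48 while the median of all genes moved to -0.28.

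B2m (chromosome 2), the light chain that each class I heavy chain needs, had values of 1480, 1499 and 1958 in WT and 1320, 1229 and 1115 in the knockouts. Again each knockout sample lay below each WT sample. The log2 difference was -0.42 with a 95% interval from -0.75 to -0.09 and a limma adjusted p of 0.318, so that B2m did not pass the threshold either. The summed level of H2-K1 and H2-D1 was 2894, 2911 and 2754 normalized counts in the WT muscles and 2271, 2343 and 2505 in the knockouts, or 2853 ± 86.2 against 2373 ± 120 (SD, n = 3 each). This sum was not tested.

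Markers of other cell types were read beside these values. The 10 macrophage markers summed to 6507 to 7295 normalized counts in the WT muscles and 5527 to 6445 in the knockouts, so that their sums did not overlap either. Of these markers 9 of 10 had a log2 difference below 0, against 51.0% of all genes tested, and the median was -0.27. Without overlap, 2 of the 10 were lower in Dock3 KO, against 8.65% of all genes tested. The leukocyte markers (Ptprc, Coro1a, Laptm5, Cd52 and Cd53) summed to 649 to 847 in WT and 566 to 785 in the knockouts. The endothelial markers summed to 7048 to 9793 and 7101 to 8081. All 5 leukocyte markers had a log2 difference below 0 (median -0.15), as did 8 of the 10 endothelial markers (median -0.11). None of the 25 genes of these 3 lists passed the threshold. Their part in the class I values was not tested, and in whole muscle fewer cells of a type and less RNA per cell cannot be told apart.

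Among the nonclassical class I genes, 11 of 23 were tested, 9 with a log2 difference below 0 and 2 above. H2-T22 was the most abundant per length. It encodes a ligand of certain gamma-delta T cell receptors, and it stood at 466, 448 and 400 normalized counts in the WT muscles and 476, 340 and 445 in the knockouts. Its groups overlapped, with a log2 difference of -0.07 and a 95% interval from -0.45 to 0.31 (limma adjusted p 0.939). H2-T23, which encodes Qa-1, the ligand of an inhibitory NK cell receptor, stood at 219, 197 and 233 in WT and 219, 192 and 190 in the knockouts. These ranges overlapped as well, and the interval of the log2 difference ran from -0.49 to 0.27.

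In the Q region, H2-Q4 was at 273, 191 and 223 normalized counts in the WT muscles and 191, 187 and 205 in the knockouts, with a log2 difference of -0.22. H2-Q6 and H2-Q7 encode the Qa-2 molecules. H2-Q6 had the values 142, 92.1 and 80.7 in WT and 72.6, 43.9 and 80.9 in the knockouts. The highest Dock3 KO sample, replicate 3, reached just above the lowest WT sample, and the log2 difference was -0.67 with an interval from -1.38 to 0.04 (limma adjusted p 0.505). With Dock3 KO replicate 3 as the only knockout library it was -0.33. H2-Q7 varied as much within WT as between genotypes, at 212, 249 and 123 in WT and 181, 123 and 205 in the knockouts. Summed over the H2-Q genes, the level was 670.5, 579 and 484 normalized counts in the WT muscles and 483, 390 and 545 in the knockouts, so that the sums overlapped.

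The remaining tested nonclassical genes were low and had wide intervals. H2-T24 ranged from 35.1 to 67.3 normalized counts in the WT muscles and from 27.8 to 38.8 in the knockouts. H2-T10 ranged from 21.7 to 36.9 and from 9.78 to 26.5, H2-Q5 from 17.6 to 51.9 and from 14.1 to 18.5, and H2-K2, an annotated pseudogene, from 24.7 to 50.3 and from 13.2 to 39.8. All 4 overlapped between genotypes, and their log2 differences lay between -0.88 and -0.55. Above 0 were H2-M3, whose product presents peptides that start with N-formylmethionine, with a log2 difference of 0.18 that became -0.09 with all samples rescaled to the same total, and H2-Q10, whose product is secreted, with 0.71. H2-M3 ranged from 24.7 to 41.0 in WT and from 31.7 to 56.0 in the knockouts. H2-Q10 was at 22.2, 24.6 and 5.93 in WT and 21.0, 21.1 and 36.04 in the knockouts. The low WT sample was replicate 4, and without it the log2 difference was 0.10. The interval of H2-Q10 over all samples ran from -0.56 to 1.98.

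**Figure D2:**
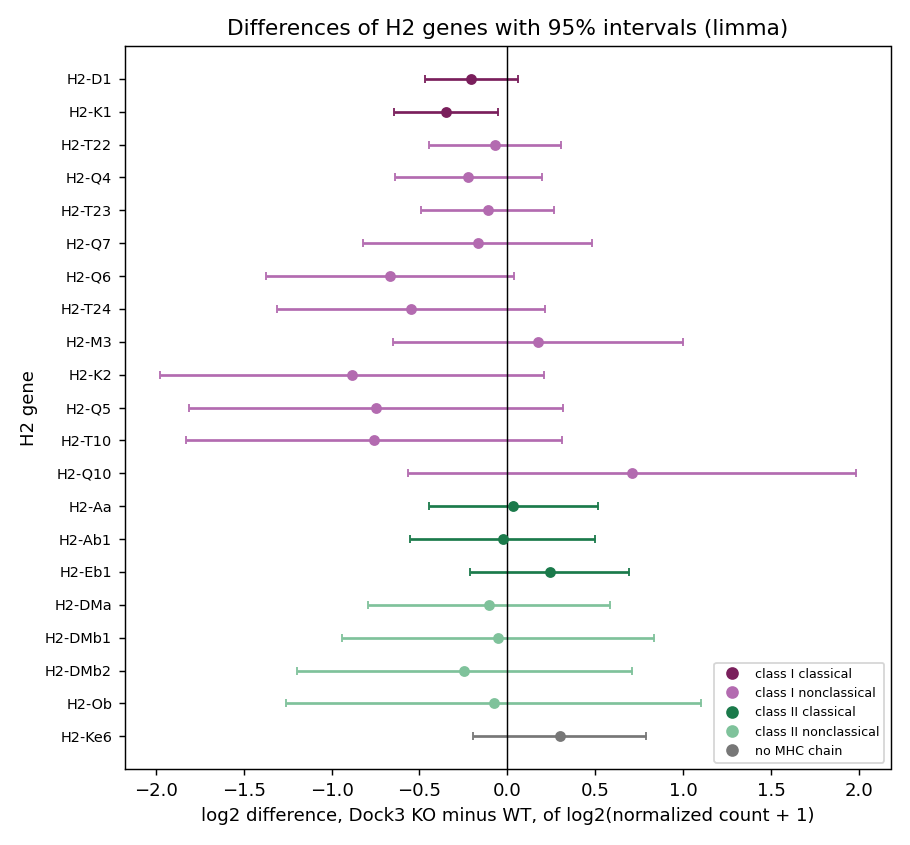
Log2 difference (Dock3 KO minus WT) of each tested H2 gene with its 95% interval from limma, coloured by class and ordered by class and mean level. The H2-K1 interval ends at -0.05, below 0, and the intervals of the other 20 genes span 0.

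Several of these genes share long stretches of nearly the same sequence, so reads may be divided between them in a way the labels do not state. The closest pair by transcript was H2-T22 and H2-T10, at 97.4% identity over 1495 aligned bases. H2-DMb1 and H2-DMb2 were 95.7% identical over 1081 bases, H2-Q7 and H2-Q10 94.9% over 1500, and H2-Q6 and H2-Q7 94.7% over 1031. H2-D1 and H2-K1 were 90.6% identical over 1404 bases. Among the tested genes, H2-Q4, H2-T22, H2-T23, H2-T24 and H2-Eb1 overlap a gene on the opposite strand. H2-DMa and H2-T10 overlap genes on both strands. These overlaps are of whole gene spans, introns included, and whether exons overlap was not examined. Whether the counting used strand is not given either, so whether these partners share reads is unknown. A sum over alike genes does not depend on how reads were divided among its own members, but it can on reads shared with genes outside it. H2-T22 was 95.3% identical to H2-Bl over 301 bases, and H2-T23 94.3% to H2-D1 over 404. Over the H2-T genes the sum was 744, 734 and 727 normalized counts in the WT muscles and 747, 603 and 676 in the knockouts, with overlapping ranges.

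The class II chain genes overlapped between genotypes and had a wide spread within each. H2-Aa (chromosome 17, 34282744 to 34287823, minus strand) encodes the alpha chain of the class II molecule I-A. It stood at 621, 493 and 836 normalized counts in the WT muscles and 795, 532 and 652 in the knockouts. WT replicate 4 and Dock3 KO replicate 1 were the highest, and WT replicate 3 and Dock3 KO replicate 2 the lowest. The log2 difference was 0.04 with a 95% interval from -0.44 to 0.52, so that changes between 0.735 and 1.43 times the WT level lie within the interval (limma adjusted p 0.979). With all samples rescaled to the same total it was -0.24.

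H2-Ab1 (34257689 to 34269419, plus strand) encodes the beta chain that pairs with H2-Aa. It stood at 449, 385.5 and 644 in WT and 632.5, 380 and 439 in the knockouts. The same pair of samples, WT replicate 4 and Dock3 KO replicate 1, was the highest. Its log2 difference was -0.03 with an interval from -0.55 to 0.50.

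H2-Eb1 (34305867 to 34316674, plus strand) encodes the beta chain of the class II molecule I-E, at 382, 300 and 450 normalized counts in the WT muscles and 525, 353 and 460.5 in the knockouts. The groups overlapped, with a log2 difference of 0.24 and an interval from -0.21 to 0.69 (limma adjusted p 0.758), and -0.03 with all samples rescaled to the same total. Its partner, the alpha chain gene listed as H2-Ea-ps, was at 0 in all 6 samples. In mice of the H-2b haplotype, which includes C57BL/6, that alpha chain gene is known to be silent. H2-Eb2 was at 9.996, 0 and 2.48 in WT and 4.09, 0 and 0 in the knockouts, too low to test.

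Cd74 encodes the invariant chain, the chaperone of newly made class II molecules, and stood at 1513, 1142 and 1914 normalized counts in the WT muscles and 1907, 1250 and 1538 in the knockouts. Its 6 samples stood in the same order as those of H2-Aa. Across the 6 samples, on the log2 scale, Cd74 and H2-Aa had a Pearson r of 0.994 and a Spearman rho of 1.0, with exact permutation p-values of 0.00139 and 0.00278, the smallest that 6 samples allow for each, and 0.0167 and 0.0333 after Benjamini-Hochberg adjustment over 12 pairs of genes. Without WT replicates 3 and 4, the samples farthest from the median of H2-Aa, r was 0.996. The 12 pairs were chosen after the values were seen.

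The other 5 pairs among H2-Aa, H2-Ab1, H2-Eb1 and Cd74 had r between 0.804 and 0.965 and rho between 0.657 and 0.886, with exact permutation p-values adjusted to between 0.05 and 0.117 for r and between 0.133 and 0.233 for rho. Among H2-K1, H2-D1 and B2m, r was between 0.494 and 0.691 and no pair had an adjusted exact permutation p under 0.176. Without the 2 samples farthest from the median of the first gene named, r was 0.954 for H2-K1 with H2-D1. In the same way it was 0.777 for H2-K1 with B2m and 0.783 for H2-D1 with B2m. H2-Aa and the general leukocyte gene Ptprc had r = -0.129 with an exact permutation p of 0.797, also after adjustment. With the macrophage gene Cd68 it had r = 0.566 and an exact permutation p of 0.243 (0.292 adjusted), and r was 0.137 without WT replicates 3 and 4. The last of the 12 pairs, H2-K1 with the endothelial gene Pecam1, had r = 0.641 (exact permutation p 0.174, adjusted 0.233).

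**Figure D3:**
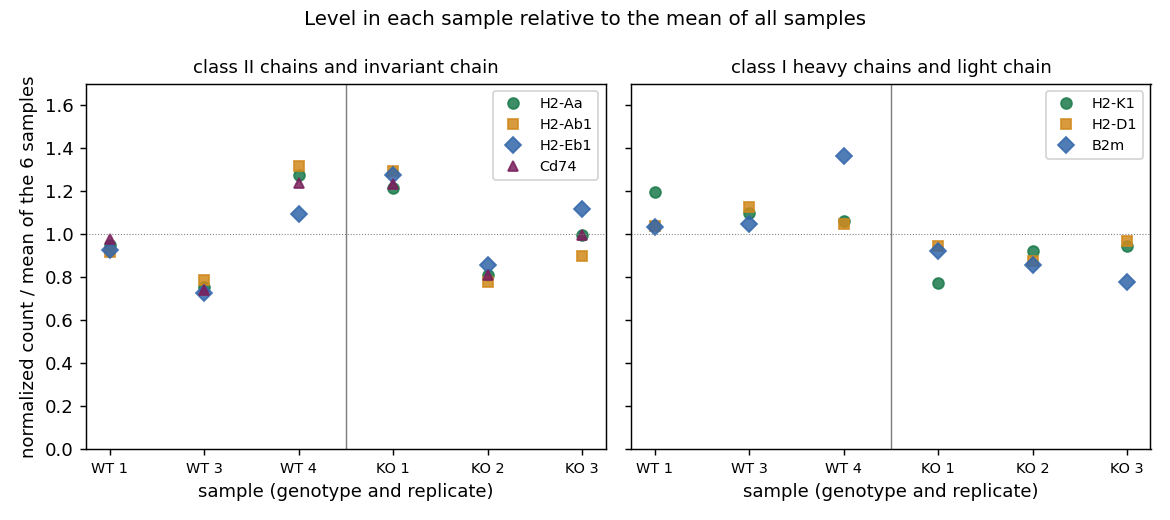
Normalized count of each gene in each sample divided by its mean over the 6 samples, for the class II chains with Cd74 (left) and for H2-K1, H2-D1 and B2m (right), with WT samples left of the grey line in each panel. The class II genes and Cd74 are above 1 in WT replicate 4 and Dock3 KO replicate 1, while H2-K1, H2-D1 and B2m are above 1 in the 3 WT samples and below 1 in the 3 Dock3 KO samples.

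The class II accessory molecules act on the peptide groove inside the cell. H2-DMa and H2-DMb1 or H2-DMb2 form the exchange factor H2-DM, which loads peptides onto class II molecules. H2-DMa stood at 76.2, 76.7 and 120.5 normalized counts in the WT muscles and 101, 55.7 and 101 in the knockouts. H2-DMb1 was at 31.3, 49.4 and 51.2 in WT and 38.6, 26.7 and 68.6 in the knockouts, and H2-DMb2 at 24.4, 22.6 and 20.9 and at 29.3, 15.3 and 14.9. All 3 overlapped between genotypes, with log2 differences of -0.10, -0.05 and -0.25, and the direction of H2-DMa and H2-DMb1 turned under several alternatives. Because the 2 beta chain genes are so alike, their sum is also given, at 66.6 ± 9.43 in WT and 64.5 ± 21.0 in the knockouts (SD, n = 3 each).

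H2-Oa and H2-Ob encode H2-O, an inhibitor of H2-DM found mostly in B cells. H2-Ob ranged from 10.6 to 13.1 normalized counts in the WT muscles and from 7.24 to 16.6 in the knockouts. H2-Oa stood at 5.38, 3.26 and 1.65 in WT and at 0 in the 3 Dock3 KO samples. Because the reads behind these low values are unknown, no fold is given. H2-Oa was the only H2 gene above 0 in all samples of 1 genotype and at 0 in all of the other. The share of all genes with this pattern was not counted. The most frequent low value also differed between libraries, from 0.82 to 0.89 for WT and 0.77 for Dock3 KO replicate 3. It was higher for Dock3 KO replicate 1 (1.4) and for replicate 2 (1.52). A value of 0 in these latter libraries therefore need not mean absence, and a loss of H2-Oa was not tested. H2-Oa overlaps BC051537 on the opposite strand, which was at 0 in the WT muscles and at 1.41, 1.52 and 0 in the knockouts. Of the 7 B cell markers 6 were tested, 3 with a log2 difference above 0 and 3 below, and the median was 0.06. Ighm, the heavy chain of the IgM antibody, had the largest values of them, 453, 462 and 986 in WT and 554, 171 and 263 in the knockouts (limma adjusted p 0.416).

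H2-Ke6 encodes a short-chain dehydrogenase and was at 212.5, 312 and 388 normalized counts in the WT muscles and 384, 384.5 and 325 in the knockouts. Its log2 difference was 0.30 with an interval from -0.19 to 0.79. Gm20427, a gene model that overlaps it on the same strand, stood at 61.3, 28.1 and 4.19 in WT and at 0, 4.69 and 0 in the knockouts (limma adjusted p 0.251).

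Compared per kilobase of annotated exon, the level of H2-D1 was the highest, with 497 to 640 normalized counts per kb over the 6 samples. H2-K1 followed with 302 to 467 per kb, and these ranges do not overlap. H2-Eb1, H2-Ke6, H2-Ab1 and H2-Aa came next, with means of 212, 204, 190 and 172 per kb and overlapping ranges, so that their order among themselves is not resolved. H2-T22 had a mean of 126 per kb, and its range reached into those of H2-Aa above it and H2-Q4 below it. H2-Q4 and H2-T23 had means of 81.5 and 72.1 per kb with overlapping ranges. H2-Q7 and H2-Q6 stood at 42.7 and 41.0 per kb and also overlapped. H2-DMb1, H2-M3 and H2-DMa lay together at 25.7 to 26.4 per kb. The lowest tested genes were H2-T10, H2-Q10 and H2-Ob, at 6.48, 5.02 and 2.26 per kb. These levels use the summed length of all annotated exons, which differs from the transcripts a tissue uses.

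**Figure D4:**
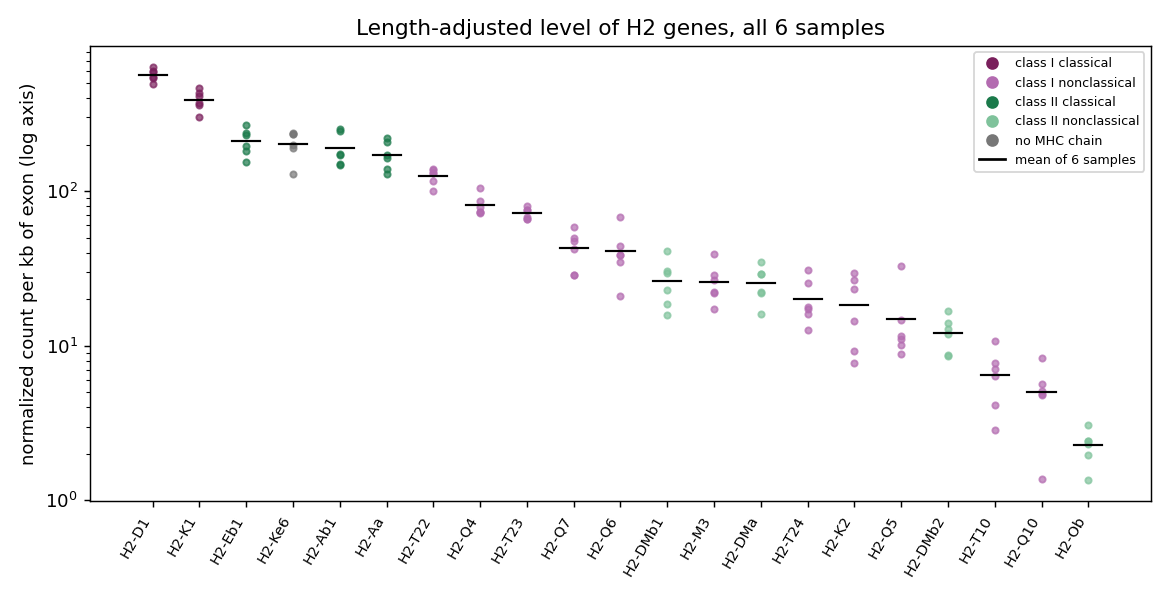
Normalized count per kilobase of annotated exon (log axis) for the 21 tested H2 genes, one point per sample with a bar at the mean of the 6 samples, ordered by that mean. H2-D1 and H2-K1 lead at means of 568 and 391 per kb, and H2-Ob is lowest at 2.26.

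The other 14 H2 genes had means from 0.129 (H2-M2) to 4.86 (H2-Bl) normalized counts and were not tested. Besides H2-Oa and H2-Eb2 these were H2-Q1, H2-Bl, H2-T-ps, H2-T3 and 8 H2-M genes. H2-M10.2, H2-M1, H2-M10.5, H2-M10.6 and H2-M2 were each above 0 in 1 sample. Several H2-M genes are known from the vomeronasal organ, and the H2-M10 genes listed here did not exceed 3.05 in any sample. H2-Bl was above 0 in 5 samples, from 1.55 to 14.3, with Dock3 KO replicate 1 at 0. A further 10 rows with an H2 symbol were at 0 in all 6 samples, among them H2-Ea-ps, H2-Q2, H2-Q3, H2-M11, H2-M10.1, H2-M10.3 and H2-M10.4.

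Genes that supply and load class I peptides were read from a list of 15, all of which were tested. None passed the threshold, 11 had a log2 difference below 0 and 4 above, and the median was -0.28 against -0.01 for all genes tested. Tap1 and Tap2 encode the transporter that carries peptides into the endoplasmic reticulum. Tap1 was at 126, 102 and 70.7 normalized counts in the WT muscles and 77.5, 59.3 and 74.1 in the knockouts, with a log2 difference of -0.47 and an interval from -1.08 to 0.15. Tap2 had a log2 difference of -0.09, and that of Tapbp, the bridge between transporter and heavy chain, was -0.37. The immunoproteasome subunits Psmb8, Psmb9 and Psmb10 had log2 differences of -0.28, -0.61 and -0.29, each with overlapping groups. Erap1, a peptidase that trims class I peptides, was at 731, 612 and 602 in WT and 394, 593 and 450 in the knockouts. Its limma adjusted p was 0.392. Erap1, B2m and Psme2 were lower in Dock3 KO without overlap, 3 of 15 genes against 8.65% of all genes tested.

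Of 9 listed genes for the class II chaperone and peptide processing, 8 were tested and none passed, with 7 below 0 and a median of -0.30. The lysosomal proteases Ctsd and Lgmn were lower in each Dock3 KO sample than in any WT sample, 2 of 8 genes against 8.65% of all genes tested. Ctsd was at 9084, 9167 and 8942 normalized counts in the WT muscles and 6764, 8036 and 6545 in the knockouts (log2 difference -0.36, limma adjusted p 0.326). Lgmn had a log2 difference of -0.37 and a limma adjusted p of 0.327. Ctss, which cleaves the invariant chain, had overlapping groups and a log2 difference of -0.32.

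None of the 17 listed MHC transactivators and their partners passed the threshold, and the median was -0.10. Ciita, the master regulator of class II genes, was at 35.6, 34.8 and 37.7 normalized counts in the WT muscles and 33.6, 76.2 and 70.8 in the knockouts. Replicates 2 and 3 of Dock3 KO were above all WT samples and replicate 1 below them, with a log2 difference of 0.64 and an interval from -0.16 to 1.44. Nlrc5, the class I counterpart of Ciita, ranged from 21.1 to 58.1 in WT and from 13.97 to 94.4 in the knockouts, with a log2 difference of 0.02 that became -0.25 with all samples rescaled. Irf1, an interferon-induced factor that binds class I promoters, was at 221, 155 and 193 in WT and 171, 129 and 136 in the knockouts, with a log2 difference of -0.38.

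Interferon-gamma is a well-known inducer of MHC genes. Its gene, Ifng, was at 0, 1.67 and 1.63 normalized counts in the WT muscles and at 0 in all knockout samples, too low to test. Of 38 listed genes of interferon signalling and its targets, 36 were tested, none passed, and the median was -0.14. A log2 difference below 0 was found for 23 of the 36 and above 0 for 13, where 51.0% of all genes tested were below 0. Without overlap, 6 of the 36 (16.7%) were lower in Dock3 KO, against 8.65% of all genes tested, and 2 were higher. At an unadjusted p under 0.05 there were 3 of the 36, or 8.33% against 10.5% of all genes tested: the guanylate-binding protein gene Gbp5, the receptor gene Ifnar2 and the antiviral gene Rsad2. Gbp5 stood at 82.9, 93.9 and 113 in WT and 48.2, 44.2 and 51.8 in the knockouts, a log2 difference of -0.98 with an interval from -1.54 to -0.43 (limma adjusted p 0.140). Ifnar2 had a log2 difference of -0.66 and Rsad2 one of 0.997, so that the 3 genes did not share a direction.

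Receptors that read MHC molecules were scarce, and 7 of 22 listed genes were tested. Cd8a, a chain of the T cell co-receptor for class I, was at 11.02, 5.61 and 6.79 normalized counts in the WT muscles and 2.56, 2.81 and 2.22 in the knockouts, below the level tested. Cd4, the co-receptor for class II, did not exceed 3.85 in any sample. None of the 7 tested genes passed. Mr1, a class I-like molecule encoded outside the H2 region that presents vitamin B metabolites, had the smallest p of them. It was at 630, 600 and 697 in WT and 422, 498 and 369 in the knockouts, a log2 difference of -0.59 with an interval from -0.93 to -0.24 (limma adjusted p 0.163).

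Further marker lists covered dendritic cells and B cells, which make class II molecules, and also T cells and NK cells. Dendritic cell markers summed to 244 to 314 normalized counts in the WT muscles and 260 to 329 in the knockouts, with Cd209a the member that differed most. Cd209a was at 0, 9.61 and 5.16 in WT and at 54.2, 72.3 and 54.0 in the knockouts, a log2 difference of 3.91 with a limma adjusted p of 0.0573, just outside the threshold. Without Cd209a the sum of the other 7 dendritic cell markers was 234 to 309 in WT and 206 to 275 in the knockouts. Of the 3 tested markers, counting Cd209a, 2 had a log2 difference above 0 and 1 below. B cell markers summed to 502 to 1044 in WT and 240 to 728 in the knockouts, and without Ighm to 39.96 to 76.9 and 55.5 to 174. T cell markers summed to 16.3 to 48.6 and 21.5 to 56.9, and NK cell markers to 1.89 to 6.68 and 5.22 to 20.5. None of these lists held a gene past the threshold. Their part in the class II values was not tested.

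Between the first and the last H2 gene, 174 other genes were above 0 and 87 were tested. None of them passed the threshold (limma with Benjamini-Hochberg adjustment), and 5 had an unadjusted p under 0.05, or 5.75% against 10.5% of all genes tested. Of the 87, 45 had a log2 difference below 0 and 42 above, with a median of -0.01. The gene with the smallest p was Gm20427, described above with H2-Ke6.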

How the data were processed

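RNA of 3 WT and 3 Dock3 KO tibialis anterior muscles was depleted of ribosomal RNA and sequenced in read pairs from stranded libraries, per the labels' protocols. The authors deposited 1 table of normalized counts, treated here as a signal per gene, since the values are not whole numbers and have no fixed sum. FastQC, Trim Galore 0.4.5, Salmon 0.12.0, DESeq2 1.22.1 and R 3.5.3 are named, with mm10 and GRCm38, per the submitters' processing notes. The annotation, the use of strand and the handling of reads that match several genes are not given in the sources used here. A gene's value depends on the authors' scaling between samples, and genes with alike sequences can share reads.

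All 54393 identifiers matched GENCODE M21. From 22.2% to 31.2% of low values were whole multiples of the most frequent low value (within 0.02), so whole reads were not recovered, no count test was run and no counting interval is given. Genotypes were compared with limma 3.58.1 in R 4.3.3 (lmFit, eBayes with trend) on log2(value + 1) over genes with a mean of at least 10, with Benjamini-Hochberg adjustment over all genes tested and a threshold of 0.05. The steps were tested on simulated data. The replicate numbers of the titles name samples and do not pair them. P-values measure only the spread between these muscles, since the labels do not say whether they come from separate animals. Transcripts were compared with blastn 2.17.0, and scipy 1.17.1 under Python 3.11.15 gave the correlations and permutation tests.

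The H2 genes, the gene lists and the tests were chosen with earlier results of these data known. Named genes are every tested H2 gene, H2 genes at 0 in 1 genotype only, fixed genes of the lists (B2m, Tap1, Tap2, Tapbp, Psmb8, Psmb9, Psmb10, Nlrc5, Ciita, Cd74, Irf1), and list or neighbouring genes past the threshold. Others named from the lists were chosen after their values were seen. Alternatives varied the pseudocount, the filter, the scaling, the prior variance, the replicate block, a Gm42418 covariate and the samples used.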

Additional observations from a re-analysis of the deposited data

How the results depend on the processing

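No H2 gene was called under any of the 17 alternatives, with 0 to 4 of them at an unadjusted p under 0.05. H2-K1, H2-D1 and B2m kept a log2 difference below 0 in all 17, from -0.62 to -0.24, from -0.48 to -0.13 and from -0.70 to -0.29. Over all genes, 165 were called, against 104 without a trend in the prior variance, 57 with log2 Gm42418 as a covariate, 49 with Dock3 KO replicate 3 as the only knockout library (assumed to vary like WT), and 98 to 159 with each sample left out in turn. Of 549 values of 33 named genes under an alternative, 489 kept direction and side of the threshold, 53 turned direction and 7, all of Dock3, kept direction but missed the threshold. Rescaling to the same total moved the median of all genes from -0.01 to -0.28 and the calls from 71 higher and 94 lower to 41 and 136. It gave log2 differences of -0.24 for H2-Aa, -0.0333 for H2-Eb1, -0.0921 for H2-M3, -0.25 for Nlrc5 and -0.23 for Cd74. Quantile normalization gave 0.0311 for H2-DMb1 and 0.0002 for H2-Ab1. The Gm42418 covariate gave 0.22 for H2-K2, 0.24 for H2-DMa, 0.79 for H2-DMb1, 0.50 for H2-Ob, 0.18 for H2-Q7, 0.0426 for H2-T22, -0.0935 for H2-M3 and 0.14 for Tap2. Dock3 KO replicate 3 alone gave 0.0514, 0.18, 0.66, 0.41, 0.13, 0.0261, -0.0784 and 0.11 for the same genes in that order. Gm42418 stood at 4479000 and 4803000 in Dock3 KO replicates 1 and 2 and at 569600 to 720700 in the other samples. The covariate fit and the fit with Dock3 KO replicate 3 alone are therefore not separate checks. Leaving out each sample in turn gave -0.15 to 0.23 for H2-Aa, -0.24 to 0.18 for H2-Ab1, -0.14 to 0.23 for Cd74, -0.25 to 0.18 for H2-DMa, -0.41 to 0.26 for H2-DMb1, -0.32 to 0.22 for H2-Ob, -0.47 to 0.0439 for H2-Q7, -0.17 to 0.075 for H2-T22, -0.0882 to 0.31 for H2-M3, -0.63 to 0.70 for Nlrc5 and -0.43 to 0.24 for Tap2. The cause of these turns was not tested.

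The replicate block could use only the numbers 1 and 3, which both genotypes share, and the deviations of same-numbered samples correlated at 0.0649 and 0.00663, so the numbers were not taken as a pairing. With the replicate block 127 genes and no H2 gene were called, and the log2 difference was 0.39 for H2-DMa, 0.38 for H2-DMb1, 0.27 for H2-Ob, 0.34 for H2-Ab1, 0.0116 for H2-T22 and -1.03 for Nlrc5. The reads behind low values, such as those of H2-Oa, are unknown, and no fold is given for them.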
